A study of Homo sapiens with 4 samples.

Results

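Accessible chromatin regions whose centre carried a p53 motif were examined in MCF10A cells before and after transformation by HRAS. The 4 ATAC-seq peak lists were merged into 60886 regions, and 770 of these (1.26%) held the motif and are the p53-motif regions described here. A region qualified when the 150 bp at the midpoint of its best-ranked peak contained a pair of adjacent p53 half-sites. A half-site is 10 bases long and reads 3 purines, C, 2 bases that are A or T, G and 3 pyrimidines. At most 3 of the 20 positions could differ from this pattern, and none at the C or G of the core. The pattern is its own reverse complement, so both strands give the same matches. The choice used the sequence and the best-ranked peak of each region and not the cell type in which the peak was called.

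MCF10A is a human mammary epithelial cell line that is immortalized but not transformed. ATAC-seq inserts sequencing adapters into open DNA with the Tn5 transposase, so that a peak marks an accessible locus. There were 2 libraries of parental MCF10A cells, labelled WT, and 2 of MCF10A cells carrying the HRAS change labelled H-RAS Gv12, called G12V below. The oncogene had been introduced on a lentiviral vector with hygromycin selection, alongside a GFP vector, so that effects of the oncogene cannot be told apart from those of transduction and selection. Whether the selected cells were 1 clone or a pool is not given in the sources used here. Both cell types grew in the same medium with epidermal growth factor, insulin, hydrocortisone, cholera toxin and horse serum. The comparison asked which accessible loci closed or opened upon transformation and which factors' motifs they carried.

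p53 is a transcription factor that is stabilized after DNA damage or oncogene activation and switches on genes for cell cycle arrest, cell death, DNA repair and metabolism. It binds DNA as a tetramer, with a pair of subunits on each half-site, and contacts the C and G of the core most strictly. Its relatives p63 and p73 recognize closely similar sequences, and p63 is a factor of basal epithelial cells, so that a match in an epithelial line does not tell which family member, if any, was bound.

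The matches with the fewest mismatches are given first, because the results below turn on how closely a region fits the motif. Capitals mark the 4-base core of each half-site. Of the regions with a peak in both MCF10A libraries and in neither G12V library, called lost, 11 had no mismatch, and 6 of these are shown, picked after their values were seen to span high and low ranks. They lay on chr4:5774607-5775781 (in an intron of CRMP1), chr2:148139784-148140425 (intergenic, with ACVR2A as nearest gene), chr15:52156684-52157209 (an intron of TMOD3), chr17:55273390-55273920 (an exon of a long non-coding RNA, with MSI2 as nearest gene), chr1:215174856-215175548 (intergenic, 3570 bp from the start of KCNK2) and chr6:105820540-105821345 (an intron of PREP), in hg19.
CRMP1: ggaCTAGcctgggCATGttc
ACVR2A: gggCTAGctcgggCATGctt
TMOD3: aggCAAGtttgaaCAAGttt
MSI2: gggCTAGcctaggCTTGttc
KCNK2: gaaCATGcttgggCTTGcct
PREP: gagCAAGcccaggCTAGtct

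The opposite pattern, a peak in each G12V library and none in MCF10A, was called gained, and the best matches of gained regions are shown for contrast. Each had 2 mismatches, counted from 1 at the first base shown. That in an intron of CLIC2 (chrX:154542793-154543982) differed at positions 13 and 15, and that in an intron of GPLD1 (chr6:24458373-24458918) at positions 3 and 11.
CLIC2: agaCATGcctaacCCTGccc
GPLD1: agcCTAGctctgaCTTGctc

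Regions called in every library, 4 of 4, are referred to as shared. The best match among them, near LCA5 (chr6:80254700-80255378), had 1 mismatch at position 5, and the next, in an intron of PPP2R1A (chr19:52692437-52694568), had 2 mismatches at positions 10 and 13.
LCA5: aggCCTGtttgggCATGctt
PPP2R1A: aaaCTAGtcaaatCTTGttc

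The last set lay within 10 kb of the start of a known p53 target. The region near CDKN1A (chr6:36634813-36635325) had 1 mismatch at position 18. Those near PMAIP1 (chr18:57566438-57567768) and SPATA18 (chr4:52917262-52918999) had 3 mismatches each.
CDKN1A: agaCAAGcccgggCAAGgcc
PMAIP1: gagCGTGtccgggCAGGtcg
SPATA18: cggCTGGtctggtCATGcct

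The 150 bp scanned in the CRMP1, CLIC2 and LCA5 regions are printed with the whole match in capitals, to show where it lay among its flanks. They span chr4:5775114-5775263, chrX:154543313-154543462 and chr6:80254928-80255077 of hg19, on the plus strand.
CRMP1 window: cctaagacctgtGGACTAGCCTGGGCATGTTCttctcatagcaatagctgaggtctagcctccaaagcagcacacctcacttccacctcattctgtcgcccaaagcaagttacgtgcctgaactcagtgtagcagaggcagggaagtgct
CLIC2 window: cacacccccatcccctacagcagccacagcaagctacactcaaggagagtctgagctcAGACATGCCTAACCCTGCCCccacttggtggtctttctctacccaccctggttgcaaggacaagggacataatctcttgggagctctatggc
LCA5 window: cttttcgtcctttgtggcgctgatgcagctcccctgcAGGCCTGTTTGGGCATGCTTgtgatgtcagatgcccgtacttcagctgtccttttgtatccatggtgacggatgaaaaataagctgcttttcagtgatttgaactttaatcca

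The lists differed in size by replicate number, and this bears on every count below. Per library, between 12294 and 45966 merged regions had a peak, with the longer list from replicate 2 in each cell type. Read depth is unknown from peak lists, so absence of a peak means only that none passed the peak caller's threshold. As a check of the epithelial label, promoter peaks were sought at 10 mammary epithelial genes. There were 3 in MCF10A replicate 1 and 2 in MCF10A replicate 2, 0 in G12V replicate 1 and 2 in G12V replicate 2. Of these genes, LAMB3, a laminin chain of the basement membrane, had a peak in 3 libraries. ITGB4 had one in both MCF10A libraries and in neither G12V library, and KRT17 and KRT8 had one in 1 library each. EPCAM, CDH1, KRT5, KRT14, KRT18 and TP63 had none in any. Of 7 genes of blood, endothelium, fibroblasts and liver, 1 (COL1A1) had a promoter peak, in MCF10A replicate 2. The check therefore rests on few genes and gives the epithelial label little support.

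p53-motif regions were called more often in MCF10A than in G12V cells. Of the regions called in MCF10A replicate 1, 232 were p53-motif regions (1.89%, 95% Wilson interval 1.66 to 2.14%), and in MCF10A replicate 2 there were 569 (1.71%, 1.57 to 1.85%). G12V replicate 1 had 91 (0.677%, 0.552 to 0.831%) and G12V replicate 2, the longest list, had 296 (0.644%, 0.575 to 0.721%). The 2 values of a cell type lay close together and the cell types did not overlap. The mean share was 1.80% ± 0.127 in MCF10A and 0.661% ± 0.0237 in G12V (SD, n = 2 each), which is 2.72 times higher in MCF10A. The difference of -1.14 percentage points (G12V minus MCF10A) exceeded the spread between replicates. The exact two-sided permutation test over libraries gave p = 0.333. With 2 libraries in each cell type no smaller p is possible, so this design cannot reach 0.05. Within replicate 1 the MCF10A share was 2.79 times that of G12V, and within replicate 2 it was 2.65 times. All intervals given here cover counting error only.

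**Figure D1:**
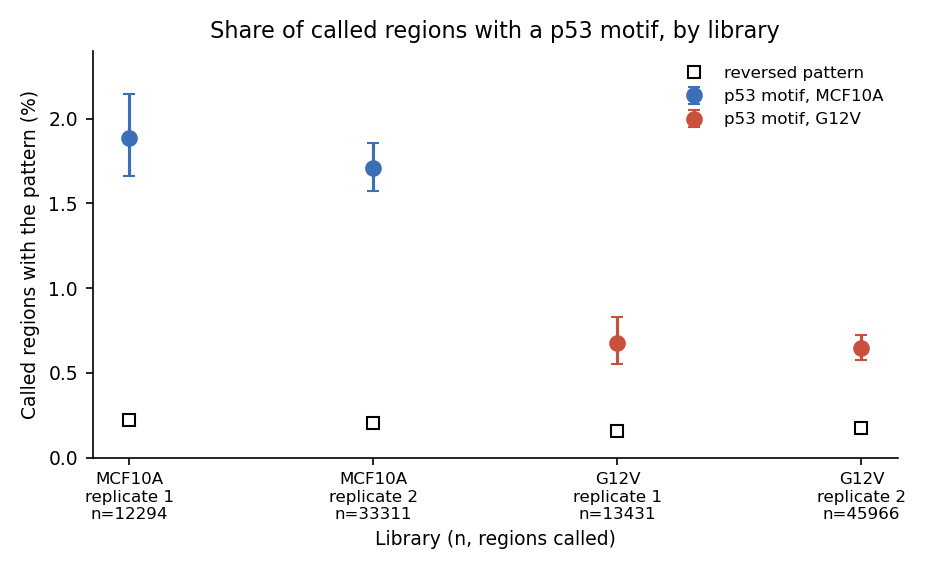
Percent of each library's called regions with a p53 motif (filled circles, bars are 95% Wilson intervals) and with the reversed pattern (open squares), for the 4 libraries on the horizontal axis. For the motif, the MCF10A libraries lie at 1.89 and 1.71% and the G12V libraries at 0.677 and 0.644%, whereas the reversed pattern lies between 0.156 and 0.220% in all 4.

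The reversed pattern, which has the same letters in opposite order, served as a control for base composition. It was found in 121 of the 60886 regions (0.199%). Its share was 0.220% and 0.204% in the MCF10A libraries and 0.156% and 0.176% in the G12V libraries. The MCF10A mean was 1.27 times the G12V mean, a smaller ratio than that of the motif. No test compared the ratios. For the reversed pattern too the cell types did not overlap, and the exact permutation test of their difference gave p = 0.333, the smallest possible.

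The share with a motif differed between the cell types along the whole score order and not at 1 end of it. Each list was divided into 10 parts by the authors' peak score. In the MCF10A lists the share with a motif lay between 1.16 and 2.60% in every part. In the G12V lists it lay between 0.303 and 0.982%. The lowest MCF10A part was therefore above the highest G12V part, although the intervals of some single parts overlapped.

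**Figure D2:**
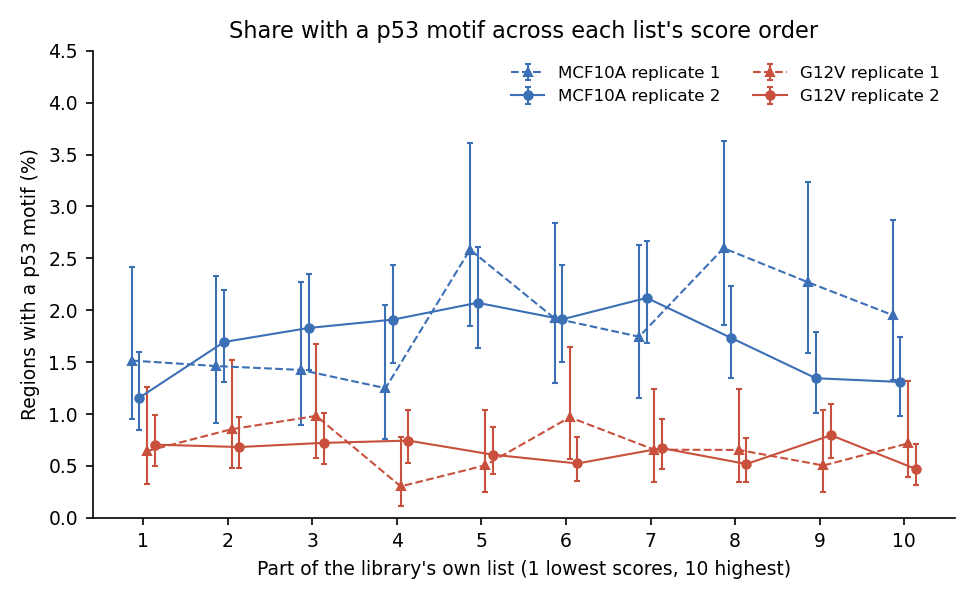
Percent of regions with a p53 motif (vertical axis) in each of 10 parts of a library's own list ordered by peak score (horizontal axis, part 10 is highest), with 95% Wilson intervals. The MCF10A lines run between 1.16 and 2.60% and the G12V lines between 0.303 and 0.982%.

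Of the 770 p53-motif regions, 93 were lost (12.1%, 95% Wilson interval 9.96 to 14.6%), against 2.14% of all merged regions. Only 11 were gained (1.43%, 0.800 to 2.54%), against 3.20% of all. Shared regions numbered 39 (5.06%, 3.73 to 6.85%), against 8.36% of all. Loss was thus more frequent, and gain and sharing less frequent, than over all regions. The size of these classes depended on which lists defined them. The lost share was 56.3% without MCF10A replicate 1 (18.5% of all regions), 32.6% without MCF10A replicate 2 (6.03% of all) and 19.3% without G12V replicate 2 (11.1% of all). The gained share was 16.1% without G12V replicate 1 (39.0% of all), 6.47% without MCF10A replicate 2 (11.4% of all) and 4.03% without G12V replicate 2 (9.86% of all). In each of these settings the lost share was above, and the gained share below, that of all regions.

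With a peak in either library counted, 454 p53-motif regions (59.0%) were called in MCF10A only, against 20.8% of all merged regions. Another 140 (18.2%) were called in G12V only, against 40.9% of all, and 176 (22.9%) in both cell types, against 38.3% of all. Most p53-motif regions were called in a single library (490, 63.6%), as were most regions overall (56.4%). Single-library calls were largest in number for MCF10A replicate 2, with 307 p53-motif regions among 9615 (3.19%). G12V replicate 2 alone had 112 among 21038 (0.532%). The single-library calls of the short lists had the same order, with 3.08% in MCF10A replicate 1 and 0.885% in G12V replicate 1.

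The closer a region fitted the motif, the more often it was lost. Of the 34 regions without a mismatch, 11 were lost (32.4%, 19.1 to 49.2%) and 0 gained (at most 10.2% by the same interval). With 1 mismatch, 11 of 54 were lost (20.4%, 11.8 to 32.9%) and 0 gained (at most 6.64%). With 2 mismatches, 28 of 192 were lost (14.6%, 10.3 to 20.3%) and 2 gained. With 3 mismatches, 43 of 490 were lost (8.78%, 6.58 to 11.6%) and 9 gained. The shares fell in order, and the intervals of neighbouring steps overlapped.

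The 1129 regions whose best match had 4 mismatches lay just outside the rule, and 4.69% of them were lost and 2.48% gained. Regions with the reversed pattern were lost in 6 of 121 cases (4.96%, 2.29 to 10.4%). Both lost shares were above the 2.14% of all merged regions, and the interval of the reversed pattern did not include that value. This control thus also leaned toward loss, on few regions. Among other motifs, 1.15% of the 3992 regions with a CTCF motif were lost and 4.13% gained. For the 9681 regions with an AP-1 motif the values were 2.47 and 3.22%, near those of all regions.

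Calls in G12V only made up 5.88% of regions with 0 mismatches, 5.56% with 1, 9.90% with 2 and 23.7% with 3. At 4 mismatches the share was 31.8%. Calls in MCF10A only made up 67.6, 85.2, 69.3 and 51.4% in the same order, and 35.2% at 4 mismatches. For calls in 1 cell type the order was not strict. Regions with 1 mismatch had a higher MCF10A-only share than those with none, and nearly the same G12V-only share. Among the regions without a mismatch, 23 were called in MCF10A only, 9 in both cell types and 2 in G12V only, both of these in replicate 2.

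**Figure D3:**
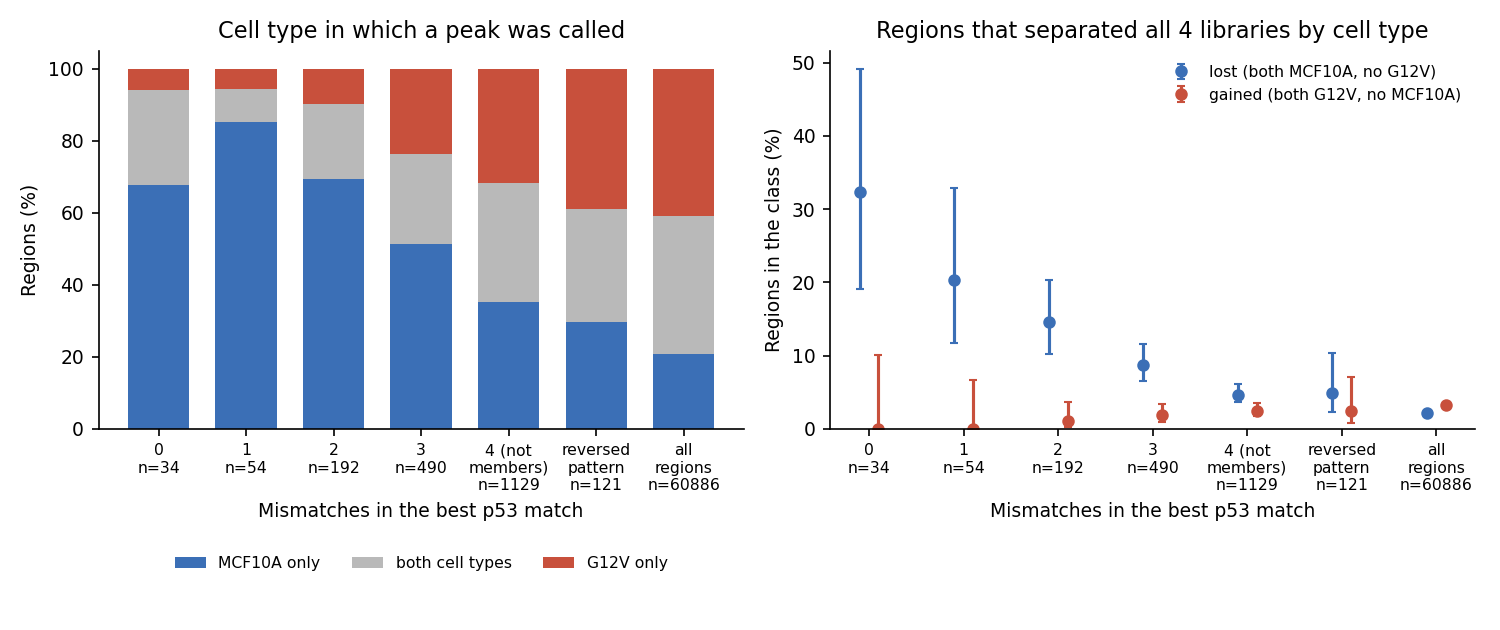
Left, percent of regions called in MCF10A only, in both cell types or in G12V only, by the number of mismatches in the best p53 match. Right, percent of regions that were lost or gained, with 95% Wilson intervals. The lost share falls from 32.4% at 0 mismatches to 8.78% at 3, while the gained share is 0 at 0 and 1 mismatch and 1.84% at 3.

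Read from the side of the classes, a p53 motif was present in 7.14% of the 1303 lost regions, 0.564% of the 1951 gained regions and 0.766% of the 5090 shared regions. The share in lost regions depended on the lists and the window. It was 4.64% with the 12888 best peaks of every library and 3.68% without MCF10A replicate 1. With a window of 300 bp it was 14.4%, and with whole regions 20.9%. In these settings the share was not computed for gained and shared regions. A match with at most 1 mismatch was present in 22 lost regions, 0 gained regions and 1 shared region. Lost regions with the motif also ranked higher than other lost regions. Their median percentiles were 67.6 in MCF10A replicate 1 and 66.2 in MCF10A replicate 2, where a percentile is the share of the library's own list at or below that score. For the 1210 lost regions without the motif, the medians were 49.5 and 56.8. Ordered by the lower of both percentiles, and divided into 4 equal parts, the best part of the lost regions held the motif in 11.7% (8.64 to 15.6%), the next in 7.36%, the third in 5.21% and the last in 4.29% (2.58 to 7.08%). Of the best 20 lost regions, 4 had the motif. No such order was seen among shared regions, whose 4 parts held it in 0.865, 0.707, 0.629 and 0.864%.

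Where a p53-motif region was called in both cell types, its rank could be compared. In the 166 regions called in replicate 2 of both, the median difference in percentile (G12V minus MCF10A) was -1.69 (interquartile range -19.9 to 15.3), against 4.93 (-5.85 to 22.4) over all 22104 regions called in both. In the 48 regions with at most 2 mismatches it was -9.91 (-27.0 to 6.60), and 14 of the 48 were higher in G12V. In the 118 regions with 3 mismatches it was 0.0600 (-12.2 to 26.9). The interquartile ranges overlapped throughout. In replicate 1 only 42 p53-motif regions were called in both cell types, and the difference was 0.0877, against 1.73 over all regions. The 11 of these with at most 2 mismatches gave 3.60, the opposite sign to replicate 2. The lower rank of close matches in G12V was thus seen in 1 replicate pair and not in the other.

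**Figure D4:**
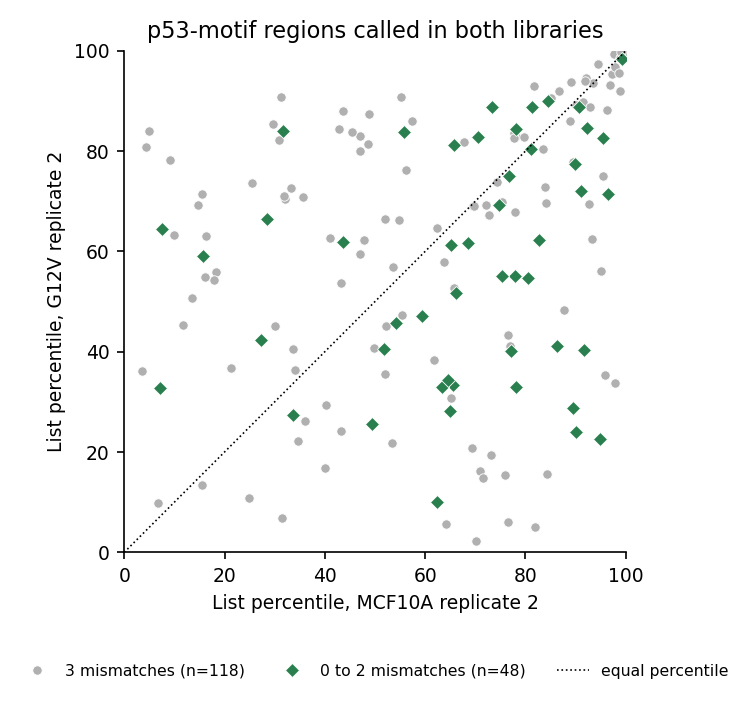
List percentile in G12V replicate 2 (vertical axis) against that in MCF10A replicate 2 (horizontal axis) for the 166 p53-motif regions called in both, by number of mismatches. Of the 48 regions with 0 to 2 mismatches, 14 lie above the line of equal percentile, and the points scatter widely on both sides.

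Over all its called p53-motif regions, the median percentile was 57.0 in MCF10A replicate 1, 50.4 in MCF10A replicate 2, 51 in G12V replicate 1 and 45.6 in G12V replicate 2. The cell types overlapped. The means of 53.7 ± 4.66 in MCF10A and 48.3 ± 3.81 in G12V (SD, n = 2 each) differed by -5.40, which is close to the SDs (two-sided exact permutation test, p = 0.667). The direction turned when only better-scoring peaks or whole regions were used.

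The 12 lost regions with the best matches lay mostly in introns or between genes, and their ranks varied widely. The CRMP1 region ranked highest, at percentiles 99.0 and 98.3 of the MCF10A lists. CRMP1 encodes a cytoskeletal phosphoprotein of semaphorin signalling. The region with ACVR2A, an activin receptor gene, as nearest gene stood at percentiles 88.9 and 89.7 and lay 461661 bp from its start. The region in TMOD3, which encodes a protein that caps actin filaments, stood at 80.2 and 66.2. These regions were in the upper part of both MCF10A lists and absent from both G12V lists.

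The others were mixed, and some ranked much higher in 1 library than in the other. The region in PREP, which encodes a prolyl endopeptidase, was at percentile 6.88 in MCF10A replicate 1 and 87.6 in replicate 2. A region 255590 bp from the start of TGFB2, a growth factor gene, was at 27.3 and 79.3. The KCNK2 region, near a gene for a background potassium channel, was at 31.8 and 55.5, and the MSI2 region, near a gene for an RNA-binding protein, at 43.5 and 68.8. One of the 12 lay at a promoter, that of HNRNPA1L3 on chr16:51587135-51587719, at percentiles 57.1 and 57.4. HNRNPA1L3 is named as a copy of the gene for the RNA-binding protein hnRNP A1, and reads that matched more than 1 place had been left out by the authors, so its value is uncertain. The only 1 of the 12 with a mismatch lay on chrX:93655472-93656145, 726460 bp from the start of FAM133A, at percentiles 96.0 and 91.0.

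The gained regions with the best matches had more mismatches than the lost ones, and their ranks also varied widely. They were the best 8 of only 11, whereas the lost ones were the best 12 of 93, so the larger class could offer closer matches. Over each whole class the median number of mismatches was 2 in lost and 3 in gained regions. The CLIC2 region, in a gene of the chloride intracellular channel family, was at percentiles 76.5 and 94.6 of the G12V lists. The GPLD1 region, in a gene for an enzyme that cleaves membrane anchors, was at 64.5 and 29.6. A gained region overlapped the promoter of SOCS7, a gene of the cytokine signalling suppressor family, at 19.9 and 29.2. The other gained regions named by the same rule had 3 mismatches each.

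Of the shared regions, that in PPP2R1A, which encodes a scaffold subunit of a protein phosphatase, was near the top of all 4 lists, at percentiles 94.2, 99.3, 97.8 and 98.4 in the order MCF10A replicate 1, MCF10A replicate 2, G12V replicate 1 and G12V replicate 2. The LCA5 region, near a gene of the cilium, stood at 67.4, 81.4, 91.2 and 88.8, with both G12V values above both MCF10A values. A region 45801 bp from HES1, a target gene of Notch signalling, stood at 27.8, 76.7, 85.3 and 75. A region 24217 bp from RHOB, a small GTPase gene, stood at 47.8, 55.8, 10.6 and 83.9. The last of these varied more between the G12V libraries than between cell types.

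**Figure D5:**
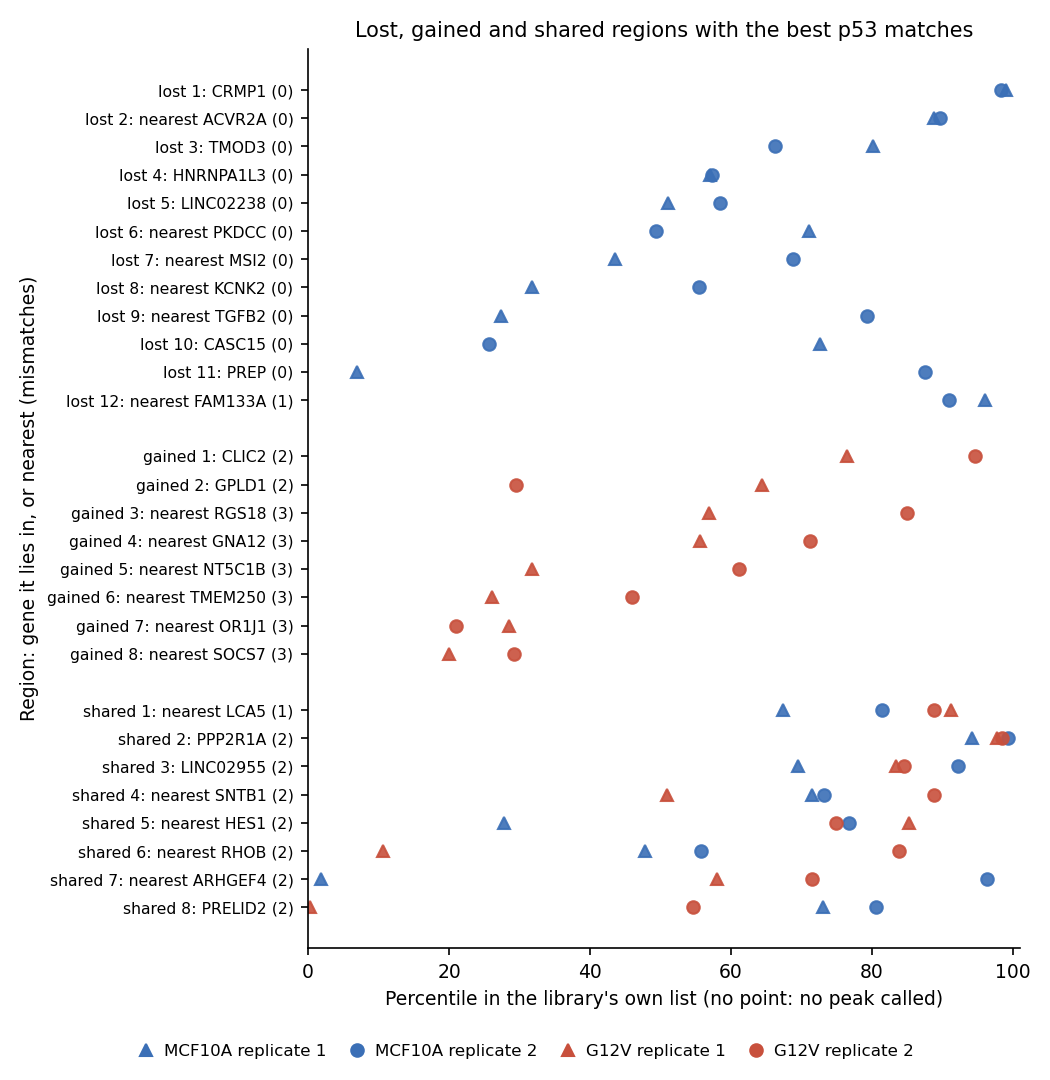
List percentile (horizontal axis) of the 12 lost, 8 gained and 8 shared p53-motif regions with the best matches, by library. Each row gives the gene the region lies in, or the nearest, with the number of mismatches in parentheses. The lost CRMP1 region is at 99.0 and 98.3 and the lost PREP region at 6.88 and 87.6.

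p53-motif regions lay mostly away from promoters. A promoter was taken as 1000 bp upstream to 500 bp downstream of a gene start, and 59 p53-motif regions overlapped one (7.66%, 95% Wilson interval 5.99 to 9.76%), against 18.6% of all merged regions. With the motif sought in the whole region and not in 150 bp, the share was 14.8% (13.6 to 16.2%), so the difference depended on the window. Another 552 (71.7%) lay within 100 kb of a start and 159 (20.6%) farther away. The median distance to a protein-coding gene start was 69256 bp, against 48974 bp over all regions. By annotation, the match lay in an intron in 417 regions, between genes in 293, in a UTR in 35, in a coding exon in 6 and in an exon of another kind in 19. Shared p53-motif regions were at promoters in 9 of 39 cases (23.1%, 12.7 to 38.3%), lower than the 53.1% of all shared regions. Lost p53-motif regions were at promoters in 5 of 93 cases (5.38%, 2.32 to 12%), an interval that includes the 9.21% of all lost regions.

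The motifs of AP-1 and CTCF were sought beside the p53 motif. AP-1 is a dimer of FOS and JUN proteins that acts downstream of RAS signalling, and its motif (TGACTCA or TGAGTCA) was found in 99 p53-motif windows (12.9%), against 15.9% of all windows. Its share was 6.45% in lost p53-motif regions (6 of 93) and 21.6% in p53-motif regions called in both cell types. It was 10.4% in those called in MCF10A only and 10% in those called in G12V only. For all regions called in both cell types the share was 16.5%, and for all lost regions it was 18.3%. For all regions called in MCF10A only it was 15.1%, and in G12V only 15.7%. In shared regions it was 20.5% with the p53 motif (8 of 39) and 10.7% in all. The AP-1 share was thus lower in lost p53-motif regions, and higher in shared ones, than in all regions of the class, on few regions. Shared p53-motif regions were also less often at promoters than all shared regions, and only 4.58% of AP-1-motif regions were at promoters. The part of promoters in this difference was not tested. CTCF binds boundaries of chromatin domains, and its motif was found in 24 p53-motif windows (3.12%), against 6.56% of all. The median GC content of the windows was 49.3%, against 48.7% over all regions.

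The matches themselves were diverse. Among the 770 regions there were 760 distinct 20-base sequences, and the most frequent was found in 3 regions. A single match was found in 742 windows, 23 had 2 and 5 had 3, overlapping matches included. The core CATG stood in both half-sites in 69 regions (8.96%), in 1 of them in 254 (33.0%) and in neither in 447 (58.1%). At least 1 half-site without mismatch was present in 280 regions (36.4%), in 46 of 93 lost regions (49.5%), 2 of 11 gained regions (18.2%) and 11 of 39 shared regions (28.2%). Since a region with at most 1 mismatch always has such a half-site, this count moves with the number of mismatches. Mismatches were most frequent where the half-sites meet, with 21.6% of regions at position 10 and 20.0% at position 11. At the outer ends the shares were 15.1% at position 1 and 17.5% at position 20. The pattern reads the same on both strands, so positions 1 and 20 are equivalent.

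No concentration of the matches at peak midpoints was detectable. Of 770, 318 (41.3%, 95% Wilson interval 37.9 to 44.8%) had their centre within 25 bp of the window's centre, where even spacing would give 38.9%. The reversed pattern gave 38.8%. The deposited lists held no summits, and the midpoint of a peak need not be its highest point.

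The list of p53 targets had 45 genes, of which 44 were matched in the annotation. Of these, 7 (15.9%) had a p53-motif region within 100 kb of their start, against 1143 of 20090 protein-coding genes (5.69%). None of these 7 genes had a lost or gained one. The targets also had more regions of any kind, with a median of 7 per gene against 5. By role, 2 of 15 genes of arrest and feedback, 3 of 15 of cell death and 2 of 14 of repair and metabolism had one. A lost p53-motif region was within 100 kb of 103 protein-coding genes (0.513%) and a gained one within 100 kb of 33 (0.164%), and 44 genes are too few to compare with such low shares.

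The p53-motif region nearest to CDKN1A, the gene of the p21 inhibitor of cyclin-dependent kinases, lay 8912 bp from its start. It was called in MCF10A replicate 2, at percentile 40.4, and in no other library. PMAIP1, which encodes the BH3-only protein NOXA, had one at its promoter, at percentiles 65.7 and 81.8 in MCF10A replicates 1 and 2 and 93.0 in G12V replicate 2, with no peak in G12V replicate 1. SPATA18, a gene of mitochondrial quality control, had a shared one at its promoter, at percentiles 95.5, 91.4, 22.8 and 89.8 in the order given above. These promoter regions were thus accessible in both cell types, and the low rank at SPATA18 came from G12V replicate 1.

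ACER2, a ceramidase gene, had one 4258 bp away, called in MCF10A replicate 2 alone at percentile 49.3. PHLDA3, which encodes a repressor of AKT signalling, had one 7273 bp away, called in MCF10A replicate 1 alone at percentile 3.15. The remaining regions near target genes were farther than 10 kb, at DUSP5 (97940 bp, shared) and BCL2L1 (12773 bp, in an intron, MCF10A replicate 2 alone). They were named after their values were seen.

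Of 25 basal epithelial genes linked to p63, 3 (12%) had a p53-motif region within 100 kb, against 5.69% of all protein-coding genes. Those at DSP, a desmosome gene (99467 bp, shared), and BMP7, a growth factor gene (87102 bp, MCF10A replicate 2 alone), were likewise named after their values were seen. The genes of this list also had more regions of any kind, with a median of 6 per gene against 5, and 3 genes are few.

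The 93 lost regions lay on 19 chromosomes. Chromosome 2 had 14 (15.1%, with 8.93% of all merged regions and 10.3% of p53-motif regions). Chromosome 5 had 12 (12.9%, with 7.27% of all and 6.88% of p53-motif regions) and chromosome 1 had 11 (11.8%, with 11.1% of all and 9.22% of p53-motif regions). Only 3 pairs of p53-motif regions lay within 10 kb of each other, and in 0 of them were both lost. The 11 gained regions lay on 8 chromosomes.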

How the data were processed

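ATAC-seq peaks of 2 MCF10A and 2 G12V libraries were used, which the study describes as biological replicates. The authors aligned reads to hg19 with Bowtie, kept uniquely placed reads, centred each read start on its transposition event and then ran MACS with a p threshold of 1e-04. The deposited score of each peak is 10 times the negative log10 of its p-value, with a lowest value of 40, and depends on depth, so it was used only as a percentile within its own list. A locus just under the threshold in a short list looks absent.

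Peaks on the 22 autosomes and X were merged where they shared 1 bp or more, and sequences were read from GRCh37, the same build, with positions counted from 1. No peak ended past a chromosome's end (0 cases). The gene annotation was GENCODE release 44, lifted to GRCh37 (20098 protein-coding and 18592 long non-coding genes). Promoters used both kinds, and distances to the nearest gene used protein-coding starts. The CTCF and AP-1 motifs were sought on both strands of the same windows, CTCF with up to 1 mismatch and AP-1 with none, and matches of different motifs could overlap.

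Shares have 95% Wilson intervals, and values per library were compared by exact permutation of the 4 libraries. No test was made over regions. The regions named were the 12 lost, 8 gained and 8 shared ones with the fewest mismatches and then the highest lowest percentile, and genes were named where a listed gene had a p53-motif region within 10 kb. The rule for the regions, the gene lists and the alternatives were chosen with earlier results of these data known. The result for 1 gene of the lists is not given. TP53TG1 of the target list and PECAM1 of the marker list had no match in the annotation used. The search and the merging were tested on simulated data. Python 3.11.15, numpy 2.4.6, scipy 1.17.1, pandas 2.3.3, pysam 0.24.0 and matplotlib 3.10.9 were used.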

Additional observations from a re-analysis of the deposited data

How the results depend on the processing

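Peak lists hold no read depth, so a missing peak may reflect a short list, and 2 libraries per cell type limit every comparison. The difference in the share of called regions with a p53 motif was negative (G12V below MCF10A) in all 14 settings tried, from -3.00 to -0.0958 percentage points, and the design could not reach 0.05 in any. The lost share was 17.9% with at most 2 mismatches, 25% with at most 1 and 32.4% with 0, and the gained share 0.714, 0 and 0%. The lost share was 15.7% (2.44% of all regions) with the better-scoring 50% of each list. With the 12888 best peaks of every library it was 16.1% (5.19% of all), and the gained share 2.55% (5.24% of all). The lost share was thus higher than in the report both in p53-motif regions (12.1% there) and in all regions (2.14% there). With lists of equal size the relative rise was larger in all regions. The relative excess of loss in p53-motif regions was then smaller than in the report. With the better-scoring 50% it was not smaller. With a peak in either library the lost share was 59.0% and the gained share 18.2%. Leaving out 1 library gave lost shares from 12.7 to 56.3% and gained shares from 1.54 to 16.1%, since fewer lists then define a class. A window of 300 bp, the whole region, 50% overlap and merging within 200 bp kept both shares within their intervals.

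The labels do not tie same-numbered libraries together, and the correlation of their deviations was -0.113. List length differed by replicate number, and its part in this value was not tested. With the replicate number as a block, the lost share was 24.7% in the replicate 1 pair (11.3% of all regions), 52.3% in the replicate 2 pair (18.4% of all) and 38.5% as their mean. The gained share was 6.36% (13.2% of all), 16.9% (39.2% of all) and 11.6%. The block left the difference in motif share at -1.14 and that in median percentile at -5.40 (sign-flip permutation p = 0.5 each, the smallest 2 pairs can give). With the numbers crossed, added after the data were seen, MCF10A replicate 1 against G12V replicate 2 gave 150 regions called in MCF10A only (19.5%, against 5.18% of all regions) and 214 in G12V only (27.8%, against 60.5%). The other pair gave 506 (65.7%, against 39.4%) and 28 (3.64%, against 6.76%).

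The difference in median percentile, -5.40 in the report, turned to 1.83 with whole regions, 0.0586 with the better-scoring 50% and 0.735 with equal lists, and ranged from -8.52 to -2.39 without 1 library. That in regions called in replicate 2 of both cell types turned to 0.53 with whole regions. The cause was not tested. The promoter share was 14.8% with whole regions, against 18.6% of all, and so closer to that of all regions than the 7.66% in the report. It was 5.19% with protein-coding starts, 14.9% with all transcript starts and 10% within 2000 bp of a start. All regions gave 15.1, 26.7 and 22.5% in these last 3 settings.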
